A study of Mus musculus with 18 samples.

Results

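The hepatic organic anion, organic cation and ABC transporters were taken as every gene of the deposited table whose symbol begins with Slco, Slc22a, Slc10a, Abca, Abcb, Abcc or Abcg followed by a number. They numbered 91 of 28442 genes, with 15 in the Slco family, 26 in Slc22a, 8 in Slc10a, 16 in Abca, 10 in Abcb, 10 in Abcc and 6 in Abcg. Their RNA was measured in 6 livers and 12 advanced liver tumors of Alb-R26Met mice, 18 samples in all. Tumors 11 and 12 shared 1 mouse, so that 17 mice were used. All mice, including those that gave the livers, were F1 males that carried R26stopMet, from parents of the strain C57BL/6JRj, and Alb-Cre, from parents of another strain. In these mice Cre is driven by the albumin promoter and removes a stop cassette in front of a mouse-human chimeric Met transgene at the Rosa26 locus, so that the receptor tyrosine kinase is expressed in hepatocytes of both groups. The livers therefore came from transgenic mice in which no tumor had developed, aged 52 to 71 weeks, and the mice with tumors were aged 49 to 72 weeks. The labels divide the samples by a tag, E19 for 2 livers with 7 tumors and E20 for 4 livers with 5 tumors, whose meaning is not given in the sources used here.

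Hepatocytes take up bile acids, bilirubin, hormones and drugs from the blood across their sinusoidal membrane, through sodium-dependent transporters of the SLC10 family, organic anion transporting polypeptides of the SLCO family and organic anion and cation transporters of the SLC22 family. They push bile acids, phospholipids, sterols and conjugates into the bile canaliculus with ATP-binding cassette (ABC) pumps, and other ABC pumps on the basolateral side return conjugates to the blood. The sodium taurocholate cotransporter Slc10a1 and the bile salt export pump Abcb11 are the main entry and exit of bile acids in this circuit.

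The deposited whole numbers are named raw counts in the study. Here they are read as TPM after rounding, a share of all transcripts in which gene length is taken into account, because the study's methods give TPM and the totals of the samples were close to each other. They were divided by 1 factor per sample and are given as scaled TPM. In 17 samples the factor lay between 0.804 and 1.40, and in tumor 2 it was 0.191. Siglece took 82.9% of the total of tumor 2, against 17.9% to 53.4% in the others. A scaled TPM of tumor 2 thus rests on few whole numbers. Met itself was at 26.02 ± 9.15 scaled TPM in livers (SD, n = 6) and at 122 ± 23.3 in tumors (SD, n = 12; log2 fold change 2.23, limma adjusted p = 4.58e-08). The labelled tissue was checked against cell type markers. The summed scaled TPM of 5 hepatocyte markers ranged from 35070 to 44870 in livers and from 32820 to 69570 in tumors (Apoa1 higher, Tat lower, the other 3 not called). Summed bile duct markers ranged from 9.44 to 18.5 in livers and from 57.7 to 903 in tumors, where Spp1 was higher among 2 tested of 5. Summed Kupffer cell markers ranged from 33.0 to 95.3 and from 2.49 to 63.7, with Clec4f lower among 3 tested of 5. Endothelial markers (2 of 6 higher) and stellate cell markers (3 of 6 higher, 2 lower) summed to 21.4 to 66.4 and 44.9 to 70.7 in livers and to 20.2 to 215 and 33.2 to 133 in tumors. None of the 3 monocyte and macrophage markers tested of 6 was called (12.2 to 31.4 in livers and 8.70 to 42.1 in tumors), and the 5 lymphocyte markers summed to at most 1.88 in livers and 5.26 in tumors, with Ms4a1 at 0 in every sample. The part of these markers in the transporter results was not tested, and in bulk tissue fewer cells of a type and less RNA per cell cannot be told apart.

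Liver 1 stood apart from the other 5 livers in genes that differ between the sexes in mouse liver, which were chosen after their values were seen. Mup20, a urinary protein gene of male liver, had a deposited TPM of 25 in liver 1 and of 1022 to 6341 in the other livers. Cyp4a12a, also a gene of male liver, was at 1 against 133 to 272. In contrast, the genes of female liver Cyp2b9 (349 against 1 to 43) and Sult1e1 (61 against 0 in each) were higher there. The Y-linked gene Ddx3y was at 18 in liver 1 and at 10 to 18 in the others, and Xist at 0 in every sample. In tumors, Cyp4a12a was at 6 to 109, below livers 2 to 6 in all 12, and Hsd3b5, another gene of male liver, was at 0 to 6 against 4 to 21 in livers 2 to 6 and 0 in liver 1. Mup20 (250 to 6899), Cyp2b9 (7 to 65) and Sult1e1 (0 to 10) in tumors overlapped livers 2 to 6. The part of these genes in the transporter results was not tested. Slco1a1, Abcc4, Slc22a26, Slc22a27 and Slc22a28 also stood apart in liver 1, and their results without it are given beside them. Slco1a4 was highest in liver 1 (32.1 scaled TPM), though close to livers 3 and 6 (28.3 and 28.0). Abcb6 (7.13 against 21.7 to 28.9 in the other livers) and Abca8a (3.565 against 14.1 to 28.9) were lowest in liver 1. Neither was called with all samples, and both were called without liver 1. Abcc6 (19.3 against 39.6 to 56.5), Abcg8 (19.3 against 34.8 to 65.4) and Slc22a30 (20.7 against 31.7 to 81.5) were also lowest there. Over the 14 transporters called lower in tumors, the median log2 difference from the liver mean was -0.654 in liver 1. In the other livers it was -0.062 to 0.438. All 18 transporters called with all samples remained called without liver 1.

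More transporters fell than rose in tumors. Of the 91 genes, 30 were listed at 0 in every sample, 11 were above 0 in some sample but under the filter (a scaled TPM of at least 1 in at least 6 samples) and 50 were tested. Of these 50, 18 were called at a limma adjusted p under 0.05, or 36.0%, against 19.1% of all 11452 genes tested. In tumors 14 of the 50 fell (28.0%, against 9.15% of all genes) and 4 rose (8.0%, against 9.95% of all genes). The median log2 fold change was -0.41 over the 50 transporters and -0.06 over all genes tested. A fold change of 2 or more was reached by 11 of the genes that fell and 3 of those that rose. These counts include genes that met the filter mostly or only through the group where they were higher. They were Slc22a28, which fell, and Slc22a27 and Slc22a29, which rose. In 5 transporters every tumor lay below every liver, against 0.882% of all genes tested, and in none did every tumor lie above every liver, against 2.35% of all genes.

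Uptake transporters of the sinusoidal membrane were lower in tumors. All 6 uptake transporters considered had a negative log2 fold change (median -1.67), and 5 of them fell, each by 2-fold or more. Their summed level was 369 to 606 scaled TPM in livers (median 501) and 63.4 to 314 in tumors (median 172), and all 12 tumors lay below every liver. Single tumors had between 3 and 5 of the 6 genes below every liver. The highest number possible was 5, because Slco1a1 was at 0 in liver 1.

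Slc10a1, the sodium-dependent bile acid importer, had the highest mean level of all transporters in livers, at 190 ± 18.8 scaled TPM (SD, n = 6). It ranged from 168 to 216 in livers (median 186) and from 38.5 to 131 in tumors (median 72.6), without overlap. The highest tumor was tumor 1 and the lowest tumor 11. The log2 fold change was -1.40 ± 0.24 (SE; limma adjusted p = 0.000341), a 2.63-fold lower level, and the gene remained called under all 35 alternatives. Slc10a1 lies on chromosome 12 (RefSeq, GRCm38.p6, 80953185 to 80968705, minus strand).

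Slco1b2, the rodent counterpart of the human liver importers of bilirubin and statins, ranged from 82.7 to 200 scaled TPM in livers (median 138) and from 12.4 to 253 in tumors (median 40.9). In 10 of 12 tumors it was below every liver, but in tumor 10 it was above every liver. The log2 fold change was -1.56 ± 0.42 (SE; limma adjusted p = 0.0115), and without tumor 10 it was -1.79 (adjusted p = 0.000483). Slco1b2 was not called among the E19 samples alone (log2 fold change -1.52, adjusted p = 0.258), which include tumor 10.

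Slco1a4 and Slco1a1, which lie next to each other on chromosome 6 near Slco1b2 and import bile acids, steroid conjugates and other organic anions, had the most negative fold changes. Slco1a4 ranged from 11.8 to 32.1 scaled TPM in livers (median 21.4) and from 0.721 to 11.4 in tumors (median 2.68), and the groups did not overlap. It fell by 2.34 on the log2 scale (SE 0.36; limma adjusted p = 9.36e-05), a 5.05-fold lower level, and was called under every alternative. Liver 1 had the highest value of all samples, and without it the log2 fold change was -2.16 ± 0.38 (adjusted p = 0.000345).

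Slco1a1 showed the opposite in liver 1. It was listed at 0 there and ranged from 37.7 to 106 scaled TPM in the other 5 livers, against 0.877 to 26.9 in tumors (median 4.61). Thus every tumor was below livers 2 to 6. The log2 fold change was -2.32 ± 0.77 (SE; limma adjusted p = 0.0384) with liver 1 and -3.30 ± 0.50 (adjusted p = 8.88e-05) without it. This call was lost in 17 of 35 alternatives, 12 of which each left out another sample. It was also lost under the exact permutation test in place of limma, which is not among the 35. Across the tumors, with tumors 11 and 12 averaged (n = 11), Slco1a1 and Slco1a4 gave r = 0.689 (adjusted permutation p = 0.0196 over the 2 pairs of neighbors given) and rho = 0.473 (adjusted permutation p = 0.147). Among the 7 E19 tumors alone r was 0.600, and without tumors 4 and 8 it was 0.139, so the relation rests on those tumors.

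Slco2b1, a broadly expressed importer of steroid sulfates on chromosome 7, ranged from 39.2 to 83.2 scaled TPM in livers (median 61.5) and from 6.22 to 32.8 in tumors (median 16.7). No tumor overlapped the livers, and the log2 fold change was -1.79 ± 0.30 (SE; limma adjusted p = 0.000258).

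The remaining uptake gene did not pass the test. Slc22a7, an organic anion importer, was at 4.99 to 37.6 scaled TPM in livers and at 0 to 15.7 in tumors (log2 fold change -1.16 ± 0.47, SE; limma adjusted p = 0.0934). It was called without tumor 2 (adjusted p = 0.0382).

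**Figure D1:**
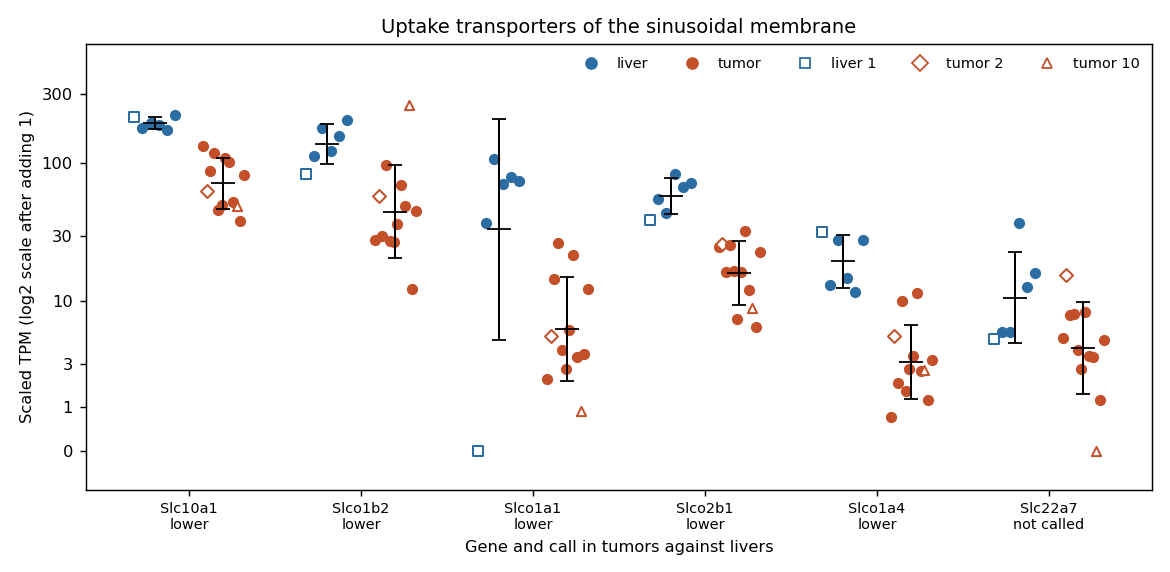
Scaled TPM (y axis, log2 scale after adding 1) of the 6 sinusoidal uptake transporters (x axis) is drawn for each of 6 livers and 12 tumors, with means and standard deviations of the log2 values as bars. Tumors lie below livers in Slc10a1, Slco2b1 and Slco1a4 without overlap, liver 1 (square) is at 0 in Slco1a1, and tumor 10 (triangle) is above every liver in Slco1b2.

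Among the pumps that export into bile, calls went in both directions. Of 8 canalicular pumps tested, Abcb11 and Abcg8 fell and Abcb1a rose, and the median log2 fold change was -0.51. The summed level was 305 to 444 scaled TPM in livers (median 367) and 179 to 325 in tumors (median 243), with 11 of 12 tumors below every liver.

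Abcb11, the bile salt export pump on chromosome 2, ranged from 49.3 to 98.5 scaled TPM in livers (median 73.7) and from 20.0 to 46.4 in tumors (median 37.3). The groups did not overlap. It fell by 1.13 on the log2 scale (SE 0.18; limma adjusted p = 0.000201), a 2.18-fold lower level, and was called under every alternative. The fall was seen among E19 samples alone (-1.12, adjusted p = 0.0270) and among E20 samples alone (-0.95, adjusted p = 0.0174).

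Abcb1a rose in tumors. This gene encodes a P-glycoprotein, a drug efflux pump, and ranged from 1.07 to 6.61 scaled TPM in livers (median 3.91) and from 5.46 to 18.4 in tumors (median 8.31). In 8 of 12 tumors it was above every liver, with tumor 10 the highest (log2 fold change 1.13 ± 0.26, SE; limma adjusted p = 0.00415). It was not called without scaling between samples or among E20 samples alone (0.68, adjusted p = 0.225). Its neighbor and near copy on chromosome 5, Abcb1b, was listed at 0 in 4 livers and 3 tumors and reached 9.55 in tumor 9 (log2 fold change 1.13 ± 0.48, adjusted p = 0.112). Reads of these similar genes could be divided between them in the authors' counting, so their separate levels are uncertain.

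The remaining canalicular pumps were not called. Abcc2, the pump for bilirubin conjugates, was at 78.2 to 159 scaled TPM in livers and 49.8 to 163 in tumors (log2 fold change -0.58 ± 0.25, limma adjusted p = 0.119, and 0.0430 without tumor 2). Abcb4, the phospholipid floppase, was at 27.9 to 55.7 and 19.1 to 52.6 (-0.51 ± 0.21, adjusted p = 0.0942). Abcg2, the breast cancer resistance protein that exports urate and drugs, was at 23.5 to 76.0 and 10.5 to 62.8 (-0.52 ± 0.35, adjusted p = 0.342). In all 3 the ranges of livers and tumors overlapped.

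Abcg5 and Abcg8 form the obligate heterodimer that secretes cholesterol and plant sterols into bile, and the starts shown here lie head to head on chromosome 17. The 109 RefSeq bases between the starts of Abcg5 (minus strand) and Abcg8 (plus strand), chr17:84683012-84683120 in GRCm38.p6, are shown as read on the Abcg8 strand because the 2 genes differed in the comparison. Abcg8 has another tabulated start, 6819 bases further upstream at the outer end of the annotated gene. The bases shown hold no match to the motifs named below for the SLC22 cluster.
Abcg5 to Abcg8: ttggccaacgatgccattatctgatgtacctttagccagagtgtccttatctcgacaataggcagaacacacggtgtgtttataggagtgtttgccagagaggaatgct
Abcg8 ranged from 19.3 to 65.4 scaled TPM in livers (median 44.7) and from 12.4 to 42.0 in tumors (median 20.2). It fell by 0.95 on the log2 scale (SE 0.27; limma adjusted p = 0.0152), and was not called among E20 samples alone (-0.36, adjusted p = 0.638) or without liver 4 or liver 6. Abcg5 ranged from 9.98 to 34.0 in livers (median 25.1) and from 7.02 to 31.9 in tumors (median 19.2), and was not called (-0.31 ± 0.31, adjusted p = 0.541). The ratio of Abcg8 to Abcg5, examined after the values were seen and given as a description, was 1.77 to 2.36 in the 6 livers. In tumors it was 0.767 to 2.25 with a median of 1.23, and 10 of 12 tumors had a lower ratio than every liver. Abcg8 did not exceed Abcg5 in 3 tumors. Even so, the pair varied together across tumors, with r = 0.807 (n = 11, adjusted permutation p = 0.00676) and rho = 0.891 (adjusted permutation p = 0.00102), with r = 0.836 without tumors 10 and 4 and r = 0.818 among the 7 E19 tumors alone. The E20 tumors were too few for a value of their own in either pair of neighbors. The annotated bodies of the genes overlap (84658174 to 84683011 and 84676302 to 84700333), so reads from the shared part are uncertain.

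**Figure D2:**
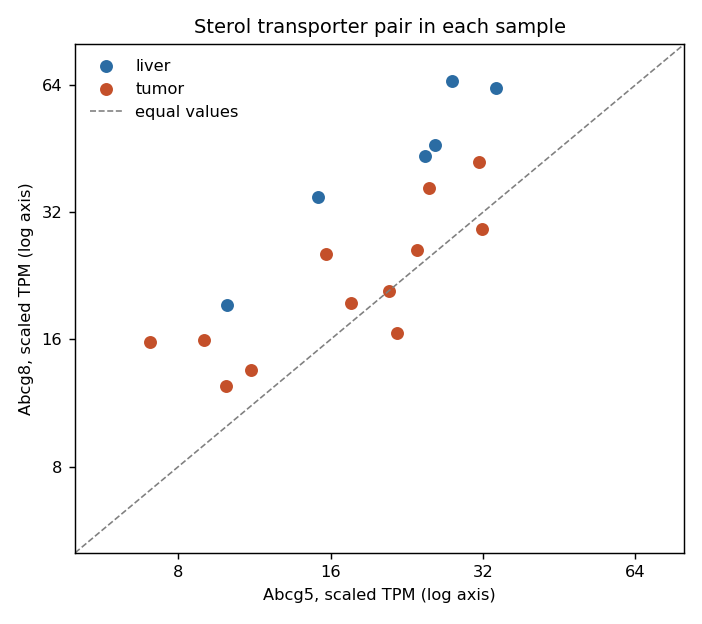
Abcg8 (y axis) is plotted against Abcg5 (x axis) in scaled TPM on log axes, 1 point per sample, with a dashed line for equal values. All 6 livers lie above the line at ratios of 1.77 to 2.36, and 10 of 12 tumors have a ratio below those of the livers.

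Of the basolateral pumps Abcc3, Abcc4, Abcc5 and Abcc6, 2 fell. Abcc1 was at most 0.944 scaled TPM and not tested. Abcc3, which returns bile acid and bilirubin conjugates to blood, ranged from 58.9 to 106 in livers (median 83.1) and from 10.5 to 57.0 in tumors (median 44.3), without overlap. It fell by 1.09 on the log2 scale (SE 0.26; limma adjusted p = 0.00553), was lowest in tumor 10, and was not called among E19 samples alone (-1.12, adjusted p = 0.129). Abcc6, whose loss causes ectopic mineralization, ranged from 19.3 to 56.5 (median 48.5) and from 6.22 to 47.2 (median 16.7), and fell by 1.34 on the log2 scale (SE 0.37; adjusted p = 0.0140).

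Abcc4 and Abcc5, which export cyclic nucleotides and conjugates, were not called. Abcc4 was at 7.84 scaled TPM in liver 1 and at 0.849 to 1.07 in the other livers, and at 15.8 in tumor 10 and at 0 to 1.82 in the other tumors. The values thus separate 1 liver and 1 tumor from all other samples rather than the groups (log2 fold change -0.11 ± 0.45, limma adjusted p = 0.897, and 0.27 without liver 1, adjusted p = 0.724). Abcc5 was at 1.07 to 7.13 in livers and at 1.99 to 15.7 in tumors (0.80 ± 0.35, adjusted p = 0.1196).

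**Figure D3:**
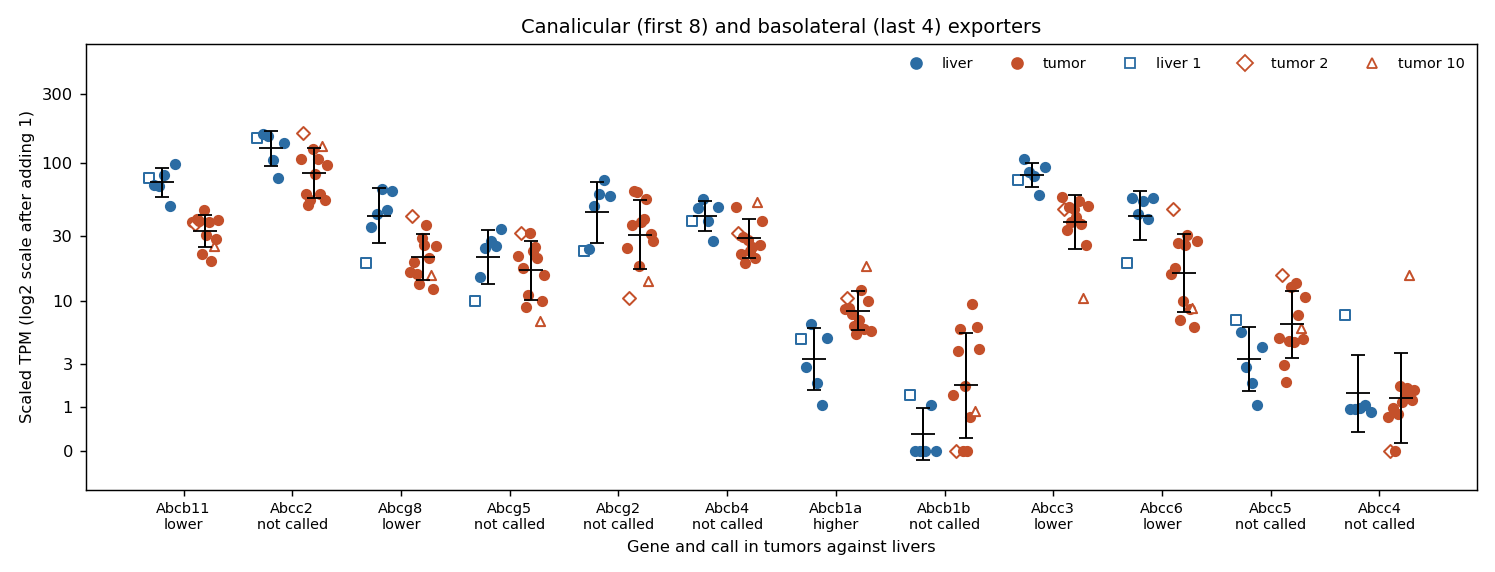
Scaled TPM (y axis, log2 scale after adding 1) of 8 canalicular and 4 basolateral exporters (x axis) is drawn for each liver and tumor, with means and standard deviations of the log2 values as bars. Tumors lie below livers without overlap in Abcb11 and Abcc3, 8 tumors exceed every liver in Abcb1a, and Abcc4 is above 2 scaled TPM only in liver 1 and tumor 10.

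A cluster of SLC22 genes on chromosome 19, related organic anion transporters of rodents, moved in both directions. Slc22a30 ranged from 20.7 to 81.5 scaled TPM in livers (median 42.8) and from 7.46 to 27.8 in tumors (median 13.2). It fell by 1.53 on the log2 scale (SE 0.29; limma adjusted p = 0.000727). Slc22a28 ranged from 0 to 5.36 in livers (median 4.01, and 0 in liver 1 alone) and was listed at 0 in 9 of 12 tumors (log2 fold change -1.60 ± 0.35, adjusted p = 0.00279). Without liver 1 the log2 fold change was -1.94 (adjusted p = 6.95e-05). Slc22a28 met the filter through livers 2 to 6 and tumor 8 alone, and was tested in 28 of the 35 alternatives. It was also called without the filter.

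Their neighbors rose. Slc22a27 was at 7.84 scaled TPM in liver 1, at 0 to 0.990 in the other 5 livers and at 1.82 to 12.96 in tumors (median 4.56). Every tumor was above livers 2 to 6. Its log2 fold change was 1.57 ± 0.38 (SE; limma adjusted p = 0.00569), and 2.01 ± 0.30 without liver 1 (adjusted p = 7.40e-05). Slc22a29 was listed at 0 in 4 livers, reached at most 0.942 in the others and ranged from 0 to 5.98 in tumors (median 1.59; 1.12 ± 0.32, adjusted p = 0.0169). Because no liver reached a scaled TPM of 1, Slc22a29 met the filter through tumors alone. It was also called without the filter. As described after the values were seen, Slc22a27 exceeded Slc22a28 in 12 of 12 tumors, while Slc22a28 exceeded Slc22a27 in 5 of 6 livers, with liver 1 as the exception. Slc22a26, on the other side of Slc22a27, was at 8.56 in liver 1, 0 to 2.55 in the other livers and 0 to 2.61 in tumors, and was not called (-0.55 ± 0.42, adjusted p = 0.409). Without liver 1 it was under the filter. Slc22a19, beside Slc22a26, and Slc22a8 and Slc22a6, beyond Slc22a30, were at 0 in every sample. Most of these values rest on deposited whole numbers of a few units.

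The 150 bases before the tabulated starts of 4 of these genes are shown because 3 of them share most of this sequence, yet their calls went in opposite directions. Slc22a27 has a different sequence and the only motif match among them. Slc22a28 and Slc22a29 had low values and met the filter mostly or only through 1 group. The contrast in direction is therefore given as a description. The RefSeq stretches (GRCm38.p6, all on the minus strand) are chr19:8131983-8132132 for Slc22a28, chr19:8405106-8405255 for Slc22a30, chr19:8218901-8219050 for Slc22a29 and chr19:7966028-7966177 for Slc22a27, in lower case with the match in capitals. Each gene had 1 start in the RefSeq promoter table. That of Slc22a29 lies 34475 bases inside the annotated gene and that of Slc22a27 lies 490 bases inside, while those of Slc22a28 and Slc22a30 are at or within 6 bases of the gene's outer end.
Slc22a28: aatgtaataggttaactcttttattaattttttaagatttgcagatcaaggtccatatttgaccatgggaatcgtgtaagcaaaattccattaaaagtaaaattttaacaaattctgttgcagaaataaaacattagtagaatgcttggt
Slc22a30: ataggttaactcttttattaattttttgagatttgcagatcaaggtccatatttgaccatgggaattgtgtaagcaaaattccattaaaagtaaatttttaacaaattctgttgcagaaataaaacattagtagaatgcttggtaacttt
Slc22a29: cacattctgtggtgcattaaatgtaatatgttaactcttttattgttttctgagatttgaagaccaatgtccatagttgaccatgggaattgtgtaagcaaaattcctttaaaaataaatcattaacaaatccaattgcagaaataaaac
Slc22a27: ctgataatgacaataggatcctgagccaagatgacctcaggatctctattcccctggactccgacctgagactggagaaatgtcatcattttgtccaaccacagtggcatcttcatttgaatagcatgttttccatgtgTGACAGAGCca
Slc22a28 and Slc22a30, which fell, were identical at 141 of 144 aligned bases (97.9%). Slc22a29, which rose, matched Slc22a28 at 114 of 131 aligned bases (87.0%) and Slc22a30 at 111 of 125 (88.8%). Genes this similar could also exchange reads in the authors' counting, so the levels of single members are uncertain.

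The capitals in Slc22a27 mark TGACNNNGC, the antioxidant response element, at positions -11 to -3 before the start. It was 1 of 4 motifs searched on both strands in windows from 250 bases before to 50 after each start, and 73 of the 91 transporters had at least 1 such window (84 in all). TGACNNNGC was in 14.3% of the transporters' windows and in 12.4% of all 32851 windows. It was in none of the 16 windows of the genes that fell, in 2 of the 4 windows of those that rose, Abcb1a and Slc22a27, and in 6 of the 27 windows of those tested but not called (22.2%). Abcc3 and Abcc6, which fell, had no window. The HNF4-type motif CAAAGTCCA was in none of the transporters' windows and in 0.475% of all. The inverted repeat core GGTCANTGA was likewise in none, and in 0.840% of all, and the direct repeat core GGTCANAGG was in 1.19% and 1.72%.

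The ABC transporters of cellular lipids were mostly not called. Of 9 tested, Abca5 rose, none fell, and the median log2 fold change was -0.08. Abca5, a lipid transporter of endosomes and lysosomes, ranged from 2.97 to 4.72 scaled TPM in livers (median 4.01) and from 4.39 to 9.95 in tumors (median 6.50), where 11 of 12 tumors were above every liver (0.64 ± 0.15, SE; limma adjusted p = 0.00375). It was not called without scaling between samples or among E20 samples alone (0.46, adjusted p = 0.190). The other 8 had log2 fold changes from -0.61 to 0.34, among them the cholesterol exporters Abca1 (0.34) and Abcg1 (0.15). Abca6 (47.8 to 95.3 in livers and 35.1 to 84.4 in tumors) and Abca3 (55.6 to 78.9 and 28.95 to 84.7), which are among the 10 transporters with the highest level in livers, had overlapping ranges and log2 fold changes of -0.15 ± 0.20 and -0.08 ± 0.20 (adjusted p = 0.680 and 0.840).

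Among the ABC transporters of mitochondria and lysosomes, Abcb10 fell. This mitochondrial exporter takes part in heme synthesis and ranged from 4.99 to 10.9 scaled TPM in livers (median 8.07) and from 2.16 to 5.25 in tumors (median 3.72), so that 11 of 12 tumors were below every liver (-0.99 ± 0.17, SE; limma adjusted p = 0.000359). The other 3 tested had log2 fold changes from -0.65 to 0.40. Slc22a5, the sodium-dependent carnitine importer, ranged from 4.28 to 17.9 in livers (median 11.7) and from 1.82 to 9.97 in tumors (median 3.92), with overlap, and fell by 1.14 on the log2 scale (SE 0.32; adjusted p = 0.0150). It was not called without liver 2 or within either tag alone. Its neighbor Slc22a4 was under the filter, at 0.713 to 1.88 in livers and at 0 in 10 of 12 tumors.

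Slc22a18, an imprinted gene for a putative organic cation transporter on chromosome 7, was the remaining gene that fell. It ranged from 54.9 to 87.1 scaled TPM in livers (median 77.5) and from 40.4 to 68.6 in tumors (median 55.7), with a log2 fold change of -0.46 ± 0.15 (SE; limma adjusted p = 0.0291). Only 5 of 12 tumors were below every liver, and the call was lost in 11 of 35 alternatives. The 11 other tested genes outside the named roles were not called and had log2 fold changes from -0.61 to 0.37. They include Slc10a2, the ileal bile acid importer, at 9.98 to 32.1 in livers and 14.9 to 53.2 in tumors (0.35 ± 0.24, adjusted p = 0.349).

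The 30 transporters at 0 in every sample were Abca4, Abca12, Abca13, Abca14, Abca15, Abca16, Abca17, Abcb5, Abcc8, Abcc12, Abcg4, Slc10a4, Slc10a4-ps, Slc22a2, Slc22a6, Slc22a8, Slc22a13, Slc22a14, Slc22a16, Slc22a19, Slc22a20, Slc22a22, Slco1a5, Slco1a6, Slco4a1, Slco4c1, Slco5a1, Slco6b1, Slco6c1 and Slco6d1. They include the renal organic anion importers Slc22a6 and Slc22a8. The 11 above 0 but not tested reached at most 5.26 scaled TPM, in Slc22a3 of tumor 10. They were Abca9, Abcb9, Abcc1, Slc10a6, Slc22a3, Slc22a4, Slc22a12, Slc22a13b, Slc22a17, Slc22a21 and Slco1c1. Slc10a6, a carrier of sulfated steroids, was at 0 in all livers and above 0 in 7 tumors, at no more than 1.24.

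Tumors differed among themselves in how far transporters were lowered. Single tumors had between 7 and 12 of the 14 genes that fell below every liver. The highest number possible was 12, because Slco1a1 and Slc22a28 were at 0 in liver 1. Tumor 11 had 12 of them below and the lowest uptake sum (63.4 scaled TPM). Tumor 12, from the same mouse, had 8 of the 14 below and an uptake sum of 171. In tumor 10 the uptake sum was 314, the highest of the tumors, and Slco1b2 (253) made up most of it. At the same time tumor 10 had the lowest Slco1a1 and Abcc3 of all tumors, and 10 of the 14 genes below every liver.

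**Figure D4:**
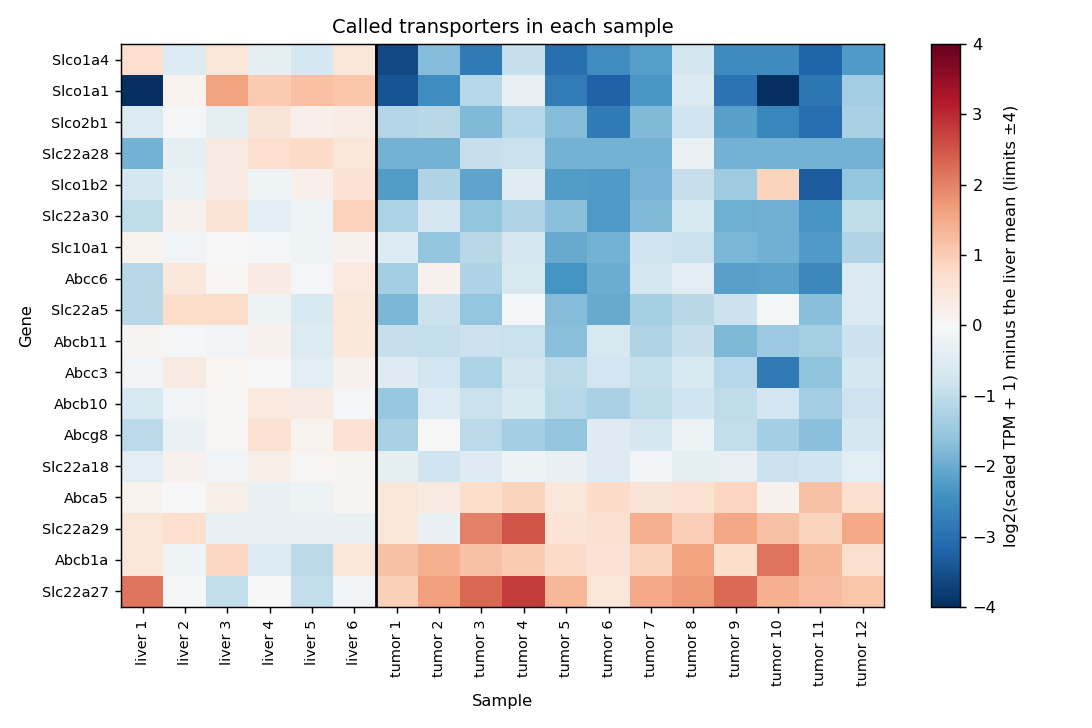
Each cell is the log2(scaled TPM + 1) of a called transporter (rows) in a sample (columns) minus the mean of the 6 livers, from blue (lower) to red (higher), with colors limited to ±4. The upper 14 genes are mostly blue in tumors, with Slco1b2 in tumor 10 (253 scaled TPM, the highest of all samples) among the exceptions, and liver 1 is blue in Slco1a1 and red in Slc22a27.

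The tags were compared in the same samples. With the group as a covariate, 7 of 50 transporters (14%) differed between E20 and E19 samples, against 20.9% of all genes tested, and none of the 7 was among the 18 called between tumors and livers. Abcc10 (log2 difference 1.37, limma adjusted p = 0.000624), Abcc5 (1.15, adjusted p = 0.00169), Abcc2 (0.78, adjusted p = 0.00423), Abca7 (0.75), Abca8b (0.52) and Abca2 (0.45) were higher in E20 samples, and Abcb8 was lower (-0.80, adjusted p = 0.0210). With the tag as a covariate in the comparison of tumors and livers, all 18 calls remained and Abcb6 and Abcc5 were added. Among the E19 samples alone (2 livers and 7 tumors) 13 of the 18 were called, and among the E20 samples alone (4 livers and 5 tumors) 5 were, namely Abcb11, Abcc3, Slc10a1, Slco1a4 and Slco1b2. The tumor-liver difference was not shown to differ between tags for any gene (interaction term in limma, 0 genes at an adjusted p under 0.05). At an unadjusted p under 0.05 there were 5 of 50 transporters and 2.92% of all genes.

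Genes that work beside these transporters were examined as well. Of 41 genes listed for this purpose, 37 were tested. Of these, 14 fell (37.8%, against 9.15% of all genes), 2 rose (5.41%, against 9.95%) and 21 were not called, with a median log2 fold change of -0.41. Among other hepatic carriers, the nucleoside importer Slc29a1 (-1.02, limma adjusted p = 0.00128), the fatty acid importer Slc27a2 (-0.75), the bile acid ligase Slc27a5 (-1.10, adjusted p = 0.00114), the urate carrier Slc2a9 (-0.61), Slc17a2 (-1.38) and the lysosomal ABC transporter Abcd4 (-1.31) fell. Abcd2, a peroxisomal importer of fatty acids, rose (2.30 ± 0.41, adjusted p = 0.000387). It ranged from 0.944 to 20.7 scaled TPM in livers (median 2.43) and from 5.25 to 35.3 in tumors (median 21.4), with overlap. None of the 3 membrane anchors tested was called.

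Nuclear receptors that are known to control transporter genes were among those that fell. Nr1i3, the constitutive androstane receptor, ranged from 47.1 to 172 scaled TPM in livers and from 3.73 to 89.2 in tumors (-2.02 ± 0.50, SE; limma adjusted p = 0.00636). The pregnane X receptor Nr1i2 (-0.98, adjusted p = 0.00944), the bile acid receptor Nr1h4 (-0.77, adjusted p = 0.0296) and its target Nr0b2 (-0.80, adjusted p = 0.0240) also fell. Nfe2l2, the factor of the antioxidant response, rose (0.58, adjusted p = 0.0495). Hnf4a (27.9 to 56.6 in livers and 31.1 to 53.4 in tumors; -0.10, adjusted p = 0.749) was not called. In bile acid synthesis, Cyp7b1 (-2.69, adjusted p = 0.000593), Cyp27a1 (-1.66, adjusted p = 0.00147) and the conjugating enzyme Baat (-1.33, adjusted p = 0.00322) fell, while the rate-limiting enzyme Cyp7a1 (0.41, adjusted p = 0.715) and Cyp8b1 (0.56, adjusted p = 0.624) were not called.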

How the data were processed

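Poly-A RNA of 6 livers and 12 tumors was sequenced paired end and, per the study's methods, aligned to GRCm38 (mm10), quantified with Salmon and normalized to TPM. The submitters' processing notes also name edgeR, which was not used here. The study calls the deposited values raw counts. They were treated as a score, TPM that the authors rounded to whole numbers, because the methods give TPM and most genes listed with TPM in the study's supplement had the same values after rounding. A 0 then covers every TPM rounded down to it. Totals per sample were 835144 to 907513. TPM do not keep the number of reads, so the depth behind a value is unknown and no counting intervals are given. Columns were matched to samples by the number in their names and by the study's list of mice, and for 2 tumors the mouse identifier differed between the labels and that list. Ages are from the list too.

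Values were divided by 1 factor per sample from an unweighted trimmed mean of M values (30% of M and 5% of A values trimmed). The filter asked for a scaled TPM of 1 or more in 6 or more samples. A pseudocount of 1 was added, and the log2 values entered a two-sided limma fit (version 3.58.1, R 4.3.3) with a variance trend and Benjamini-Hochberg adjustment over all 11452 genes tested and a threshold of 0.05. Fold changes are on the log2(value + 1) scale, which understates changes of low genes. Samples came from separate mice except tumors 11 and 12, which were fitted as separate samples. Correlations used 100000 permutations of pairings, two-sided. The fit was tested on simulated data.

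The 29 genes with full values are all transporters called, the 10 with the highest mean deposited value in livers and those listed as uptake, canalicular or basolateral transporters, and some results, among them those of 1 listed importer, are not reported here. The members, lists, motifs and tests were chosen with earlier results of these data known. The values of Slc22a26, Slc22a3, Slc22a4, Slc10a2 and Slc10a6, the sex-related genes, the ratio of Abcg8 to Abcg5 and the comparison of Slc22a27 with Slc22a28 were chosen after values were seen. So were the liver values of Abcb6 and Abca8a, and the comparison of liver 1 with the other livers in Abcc6, Abcg8 and Slc22a30. Same-numbered livers and tumors come from different mice. Promoter windows and positions come from RefSeq (GRCm38.p6) through Entrez identifiers. Stretches were aligned with Biopython. Python 3.11.15, numpy 2.4.6, scipy 1.17.1, pandas 2.3.3 and matplotlib 3.10.9 were used. Alternatives covered the scaling, pseudocount, filter, covariates, tags, sample weights, averaging of tumors 11 and 12, a replicate block, an exact permutation test and each sample left out. Leaving out liver 1, tumor 2 and tumor 10 together was added after the data were seen.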

Additional observations from a re-analysis of the deposited data

Results flagged for a closer look

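Among the 6 livers, 3 of the 29 transporters with full values had a single liver far from the rest, measured as its gap to the nearest liver over the whole range of the livers and judged by Dixon's critical value for 6 samples. With 29 genes examined, about 1.45 such cases arise by chance at 1 in 20. For Abcc4 the share was 0.968, with liver 1 at 7.84 scaled TPM and the other livers at 0.849 to 1.07. For Slc22a27 it was 0.874, again with liver 1 at 7.84, against 0 to 0.990. For Slc22a7 it was 0.659, with liver 4 at 37.6 against 4.99 to 16.1.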

How the results depend on the processing

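Of 619 fold changes of called transporters recomputed under alternatives, 568 kept their call, 51 lost it and none changed sign. Abcb11, Slc10a1 and Slco1a4 kept their call under all 35 alternatives. These counts leave out the exact permutation test, under which only Slco1a1 lost its call. Slc22a29 kept its call under the 31 in which it was tested, but it met the filter through tumors alone and had low values. Without scaling between samples the median log2 fold change of all genes moved to -0.18 from -0.06, 2 transporters rose, 88.2% of the called transporters were lower against 77.8% with scaling, and 1341 genes in all and 9 of the other pathway genes were called. Among the E19 samples 9 transporters fell. Among the E20 samples 5 transporters were called, 5 fell and 0 rose (limma), with 536 genes and 1 other pathway gene called. Sample quality weights gave 29 transporters (7 higher, 22 lower) and 4527 genes, and leaving out liver 1, tumor 2 and tumor 10 gave 26 transporters and 3780 genes.

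The replicate block on livers and tumors 1 to 6 called 15 transporters, of which 1 rose, and 10 other pathway genes, and Abca5, Slc22a18 and Slc22a27 lost their call. The same 12 samples without it gave 13, of which 2 rose, 9 other pathway genes and 1363 genes in all. Correlations between same-numbered samples ran from -0.105 to 0.426, and 3 of 6 samples matched best with their own number. Numbers were not taken to pair the samples because same-numbered livers and tumors come from different mice. Lower calls made up 93.3% of called transporters under the block, 69.2% among E19 and 100% among E20 samples.

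Leaving out each sample in turn gave 14 to 20 transporters called, 10 to 16 lower and 4 higher, 1651 to 3212 genes (fewest without liver 2, most without tumor 2), 13 to 20 other pathway genes and medians of -0.46 to -0.33. The correlation of Slco1a1 with Slco1a4 ran from 0.561 to 0.812 when each tumor was left out. That of Abcg5 with Abcg8 ran from 0.776 to 0.875. The cause of these shifts was not tested.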
